A study of Mus musculus with 12 samples.

Results

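The strain by restraint interaction is, for each gene, the restraint effect in BALB/c mice minus the restraint effect in B6 mice. It asks whether the medial prefrontal cortex, a frontal area that regulates the stress response, answered the same stress differently in the 2 strains. All 12 libraries of the series entered it, in 4 groups of 3, and 16423 of 55678 gene names reached 1 TPM (transcripts of a gene among all transcripts of a library, corrected for length) in at least 3 libraries and were tested. B6 stands for C57BL/6JmsSlc and BALB/c for BALB/cCrSlc, both inbred. Mice of the chronic restraint stress (CRS) groups were held in a tube for 6 h per day on 21 days, and the controls were handled in a similar way without restraint. All mice were 9 to 10 weeks old, all had gone through behavioural testing before the tissue was punched, and no group carried a transgene or drug. The labels give no sex, time of day, litter or sequencing batch, and each library is named here by its group and animal number.

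Immediate early genes such as Fos, Egr1 and Arc are switched on within minutes of neuronal firing, and their RNA is short-lived, so their level reflects recent activity. Clock genes form a feedback loop in which CLOCK and ARNTL (BMAL1) bind the E-box motif in the promoters of Per, Cry and other repressor genes, and glucocorticoids released under stress can shift part of this loop. In an interaction contrast, a positive value means that the difference between CRS and control was more positive in BALB/c than in B6, which can come from a change in either strain or in both. Effects and differences below are differences of group means of log2(TPM + 1), and the added 1 shrinks them for weakly expressed genes.

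The libraries were of similar complexity, with 14805 to 15542 genes at 1 TPM or more. BALB/c CRS replicate 12 stood apart in ribosomal RNA, with the gene Rn18s-rs5 at 3.972% of TPM against 0.031% to 0.169% in the other 11. The median correlation with libraries of the same group was lowest in B6 control replicates 9 (0.9632) and 2 (0.9641). It was 0.9765 in BALB/c CRS replicate 12. Tissue markers also varied within groups: the mean log2(TPM + 1) of 18 striatal neuron markers ran from 3.23 to 6.67 in B6 controls and from 5.27 to 6.44 in B6 CRS, but only from 2.89 to 4.01 in BALB/c controls and from 2.896 to 3.12 in BALB/c CRS. Genes that mark cortical excitatory neurons were present in every group, with a mean level over 19 markers of 4.10 to 4.70. Because the samples are bulk tissue, fewer cells of a type and less RNA per cell cannot be told apart.

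No gene passed the test of the interaction. Of 16423 genes, 0 (0%) had a Benjamini-Hochberg adjusted p under 0.05 by limma, and the smallest adjusted p was 0.442. At an unadjusted p under 0.05 there were 443 genes, of which 281 (1.71% of those tested) were more positive in BALB/c and 162 (0.986%) more negative. Scaling the libraries by the median of ratios turned this split to 273 and 289, library weights to 1858 and 532, and leaving out BALB/c CRS replicate 12 to 588 and 116. The median difference over all genes was 0.05 and 59.7% of genes lay above 0, whereas with median-of-ratios scaling the median was 0.00. The median standard error of a difference was 0.25, and for 12463 genes the unadjusted 95% interval lay wholly within 1 log2 unit of 0. For the remainder, differences larger than that lay inside the interval. These intervals are on the log2(TPM + 1) scale and do not bound the fold change of weakly expressed genes.

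**Figure D1:**
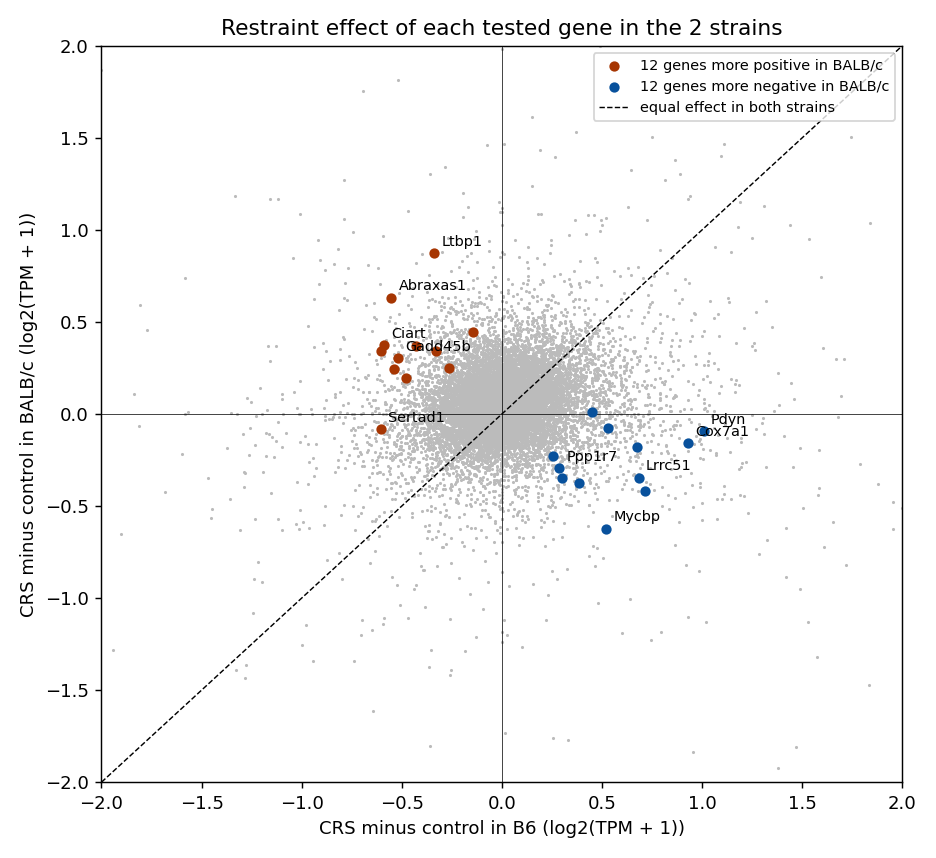
Restraint effect of each tested gene in B6 (x axis) and BALB/c (y axis), as the difference of group means on the log2(TPM + 1) scale; 39 genes lie outside the limits of 2. The dashed line marks equal effects, and coloured points are the 12 named genes of lowest unadjusted p on each side of it, none of which passed the adjusted threshold.

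Ciart had the lowest p of all genes with a mean level of at least 2 on the log2 scale. It encodes CHRONO, a repressor of the CLOCK and ARNTL complex. Its level was 15.9, 16.5 and 16.0 TPM in B6 controls and 9.70, 9.79 and 11.8 TPM in B6 CRS, and it was 10.6, 8.93 and 10.1 TPM in BALB/c controls and 12.1, 14.2 and 13.0 TPM in BALB/c CRS. The 3 CRS libraries thus lay wholly below the controls in B6 and wholly above them in BALB/c, and the 2 control groups did not overlap each other. The difference was 0.96 (95% interval 0.60 to 1.32, adjusted p 0.494, limma), from an effect of -0.59 in B6 and 0.37 in BALB/c. Leaving out any single library kept it between 0.90 and 1.05. With empirical library weights its adjusted p was 0.0511, the smallest that this gene reached outside the fit with a replicate block. The gene lies on the minus strand of chromosome 3 (GRCm38, 95878503 to 95882251) and overlaps the antisense gene C920021L13Rik, and whether strand was used in quantification is not given in the sources used here.

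The promoters of Ciart, Per3 and Gadd45b are shown because these were a repressor of the clock, the other clock gene at an unadjusted p under 0.05, and the stress-inducible gene described next. Each covers 250 bases before to 50 bases after the start of transcription in RefSeq (GRCm38.p6), 5′ to 3′ on the gene's own strand, with the E-box CACGTG in capitals. The motif is its own reverse complement, so a single search covers both strands. Ciart lies at chr3:95882179-95882478 on the minus strand, Per3 at chr4:151044616-151044915 on the minus strand and Gadd45b at chr10:80929841-80930140 on the plus strand.
Ciart: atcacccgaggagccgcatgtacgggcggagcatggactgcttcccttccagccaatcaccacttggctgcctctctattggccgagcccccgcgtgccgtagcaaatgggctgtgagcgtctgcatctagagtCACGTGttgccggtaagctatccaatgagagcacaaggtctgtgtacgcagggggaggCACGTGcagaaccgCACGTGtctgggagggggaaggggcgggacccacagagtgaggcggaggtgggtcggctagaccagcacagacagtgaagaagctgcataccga
Per3: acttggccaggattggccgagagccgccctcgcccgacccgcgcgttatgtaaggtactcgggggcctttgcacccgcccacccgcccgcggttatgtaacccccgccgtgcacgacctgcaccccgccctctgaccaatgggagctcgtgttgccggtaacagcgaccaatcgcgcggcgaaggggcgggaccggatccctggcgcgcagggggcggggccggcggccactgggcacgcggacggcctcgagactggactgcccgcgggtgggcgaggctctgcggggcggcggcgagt
Gadd45b: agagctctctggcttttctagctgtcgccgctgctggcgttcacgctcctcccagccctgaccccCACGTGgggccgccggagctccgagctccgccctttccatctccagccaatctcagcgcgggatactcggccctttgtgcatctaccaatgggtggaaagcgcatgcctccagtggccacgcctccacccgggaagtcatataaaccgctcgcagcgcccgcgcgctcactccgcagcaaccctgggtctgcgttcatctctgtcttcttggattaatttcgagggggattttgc

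The Ciart window held the E-box 3 times, beginning 116, 58 and 44 bases before the start. The Gadd45b window held it once, 185 bases before the start, and these letters are not in the Per3 window. Of 32851 promoters in the table, 7.15% held the motif. Of 27 promoters of tested clock genes, 6 (22.2%) held it. These 27 belong to 18 genes, of which 5 held the motif in any promoter, namely Bhlhe41, Ciart, Cry1, Per1 and Tef. Of these 5, only Ciart had an unadjusted interaction p under 0.05.

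Of 23 tested genes of the core clock loop and its outputs, Ciart included, 14 had a positive difference (59.7% of all genes did) and the median was 0.03 (0.05 over all genes). At an unadjusted p under 0.05 there were 2, both positive, against 1.71% of all genes in that direction. The second was Per3, a period gene. It stood at 13.0, 12.0 and 12.4 TPM in B6 controls against 8.57, 8.51 and 8.02 in B6 CRS, and at 11.4, 8.08 and 10.9 TPM in BALB/c controls against 8.61, 10.98 and 9.50 in BALB/c CRS. The B6 groups were thus separate and the BALB/c groups overlapped (difference 0.47, 95% interval 0.05 to 0.90, adjusted p 0.9999, limma). The repressor Cry1 had the most negative value of the list, with a difference of -0.39 (SE 0.27), which was -0.18 without B6 control replicate 9. Arntl (-0.04) and Clock (-0.04), the activators of the loop, had differences within 0.05 of 0. Nr1d1, which encodes the repressor REV-ERBα, had a higher mean after CRS in both strains, by 0.25 in B6 and 0.51 in BALB/c, with a difference of 0.26 (SE 0.21, and 0.09 without B6 control replicate 3).

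Next came the genes that were lower after CRS in B6 and higher in BALB/c. Abraxas1 encodes a scaffold of a BRCA1 complex that acts in DNA repair. Its level was 5.01, 4.67 and 7.14 TPM in B6 controls, 3.76, 4.40 and 2.42 in B6 CRS, 2.39, 1.67 and 2.54 in BALB/c controls and 3.45, 4.31 and 4.07 in BALB/c CRS. Both strains were separated, in opposite directions, and the difference was 1.18 (95% interval 0.55 to 1.82). Ltbp1, whose product binds latent TGF-β in the matrix, had 4.72, 3.12 and 4.55 TPM in B6 controls and 2.98, 3.10 and 2.99 in B6 CRS. In BALB/c it was at 6.62, 3.42 and 3.18 TPM in controls and 9.89, 7.73 and 8.17 after CRS, so most of its difference of 1.21 (95% interval 0.54 to 1.89) came from BALB/c. The B6 groups nearly overlapped, with the lowest control just above the highest CRS library.

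Gadd45b, a stress-inducible gene of the growth arrest and DNA damage family that takes part in activity-dependent DNA demethylation, followed the same pattern. Its level was 18.5, 18.2 and 16.3 TPM in B6 controls and 10.0, 11.8 and 14.6 in B6 CRS. In BALB/c it was 13.5, 9.84 and 9.72 TPM in controls and 12.9, 14.6 and 13.6 after CRS. Only the B6 groups were separate, and BALB/c control replicate 5 lay among the CRS libraries (difference 0.82, 95% interval 0.35 to 1.30). The other positive differences of lowest p were of similar or smaller size. Gkn3, a gastrokine gene known as a marker of arterial endothelium in the brain, had a difference of 0.95 (SE 0.26), and Npas1, a transcription factor of inhibitory neurons, one of 0.80 (SE 0.24). Tbl1xr1 (0.79, SE 0.23), a subunit of nuclear receptor corepressor complexes, and Ep300 (0.67, SE 0.19), the acetyltransferase p300, both act on chromatin. Mitd1, which acts in the last step of cell division, had a difference of 0.68 (SE 0.19) and overlaps Lipt1 on the other strand. Kin (0.51, SE 0.16), a DNA-binding protein gene, Sertad1 (0.52, SE 0.15), a cell cycle coregulator, and Spaca6 (0.59, SE 0.18), a sperm protein gene whose locus also holds Mir99b, Mirlet7e and Mir125a, completed the 12. The Spaca6 difference was 0.39 with the striatal score as a covariate. Sertad1, unlike the others, had a lower mean after CRS in both strains (effects -0.60 in B6 and -0.08 in BALB/c). The 12 genes' adjusted p was 0.9999 in each case except that of Ciart (limma).

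The genes more negative in BALB/c were led by Mycbp, whose product binds the MYC protein. B6 controls had 6.15, 7.86 and 6.32 TPM and B6 CRS mice 8.14, 10.6 and 12.0, whereas BALB/c controls had 10.9, 8.77 and 13.4 TPM and BALB/c CRS mice 8.03, 7.78 and 4.79. Both strains were separated in opposite directions (difference -1.14, 95% interval -1.79 to -0.50, adjusted p 0.9999, limma). Mycbp overlaps the noncoding genes Gm26606 and Gm12905 on the other strand. Ppp1r7, a regulatory subunit of protein phosphatase 1, had a mean of 47.9 ± 5.77 TPM (SD, n = 3) in B6 controls and 58.5 ± 4.51 (SD, n = 3) after CRS. In BALB/c the means were 53.4 ± 3.24 TPM and 43.7 ± 6.56 (SD, n = 3 each), a difference of -0.58 (SE 0.18), again with separate groups in each strain. Ndufs4, a subunit of mitochondrial complex I, was the most abundant of these genes and had the smallest difference, -0.32 (SE 0.13). It went from 108 ± 3.42 TPM to 116 ± 1.54 in B6 and from 112 ± 12.3 TPM to 96.0 ± 1.83 in BALB/c (SD, n = 3 each).

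In most other genes of lowest p with a negative difference, the larger part of the value came from B6. Pdyn encodes prodynorphin, an opioid peptide precursor that is abundant in the striatum. Its level was 35.4, 19.5 and 14.9 TPM in B6 controls and 51.8, 43.0 and 40.6 in B6 CRS, against 16.5, 15.5 and 24.3 TPM in BALB/c controls and 16.2, 20.6 and 15.2 in BALB/c CRS (difference -1.10, 95% interval -1.92 to -0.29). The striatal marker score of the same B6 controls was 6.67, 4.33 and 3.23, in the same order as their Pdyn level. With that score as a covariate the difference was -0.70. Pdyn is itself a member of the score, so the shared order and the smaller difference are partly built in. Cox7a1, a subunit of cytochrome c oxidase, had 3.46, 1.30 and 2.901 TPM in B6 controls and 4.60, 7.56 and 4.77 in B6 CRS, with all 6 BALB/c libraries between 2.79 and 4.75 TPM (difference -1.09, SE 0.36). Lrrc51, which overlaps Lamtor1 on the other strand, had a difference of -1.03 (SE 0.32), and Cfap100, a cilia gene, one of -1.13 (SE 0.39). Tgfbr3l (-0.86, SE 0.30), Haus4 (-0.76, SE 0.26), a spindle subunit, Lsr (-0.60, SE 0.20), a tricellular junction receptor, and Tiam2 (-0.44, SE 0.15), a RAC1 activator, had higher means after CRS in B6. Ppih (-0.65, SE 0.21), a spliceosomal cyclophilin, shares 98.7% of its sequence over 534 bases with the pseudogene Gm8719, so its own value is uncertain. Nrep had the difference -0.48 (SE 0.16).

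**Figure D2:**
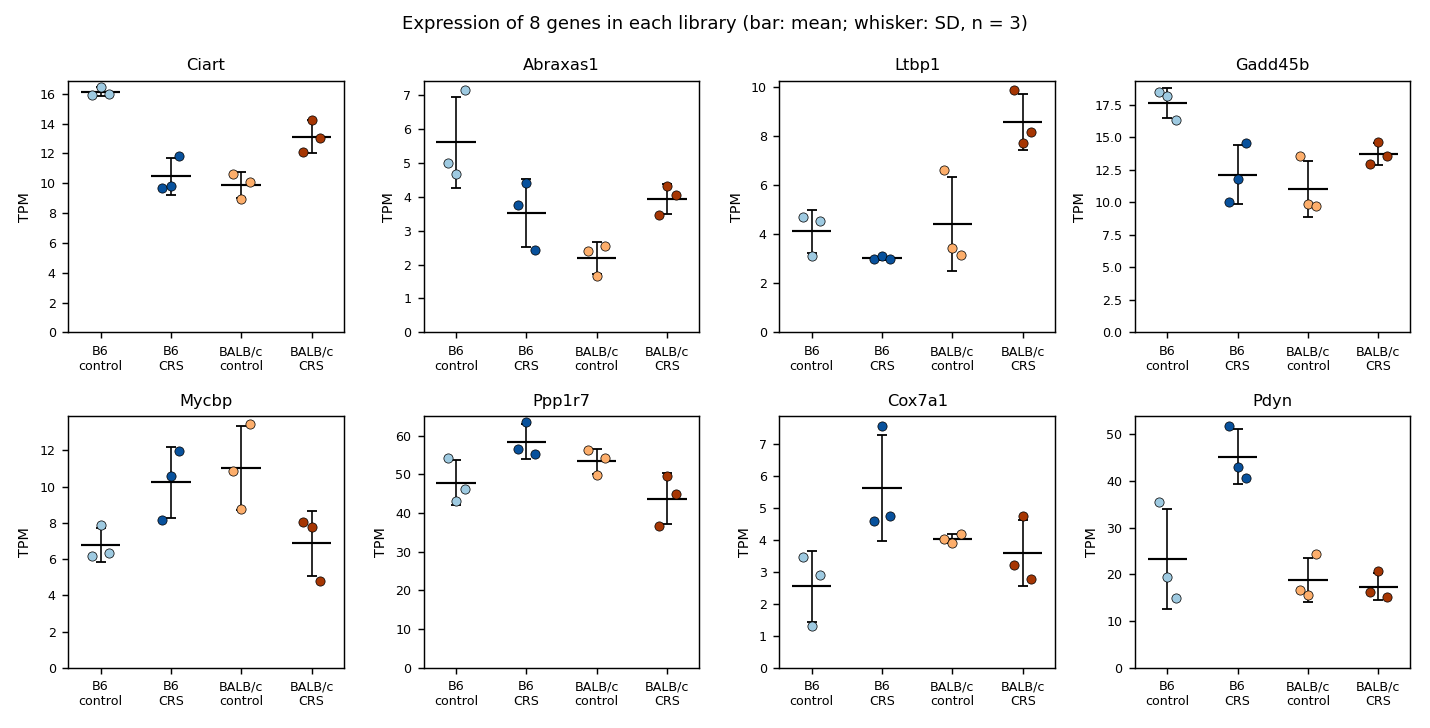
TPM of 8 genes in each of the 12 libraries, by group, with the mean and SD (n = 3). In the upper row the B6 CRS libraries lie lower than the B6 controls and the BALB/c CRS libraries mostly higher, and in the lower row Mycbp and Ppp1r7 show the opposite order while Cox7a1 and Pdyn are highest in B6 CRS.

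A simple count of separation gave few genes of opposite direction. In 33 genes (0.201% of those tested) all CRS libraries lay above the controls in BALB/c and below them in B6, and in 11 genes (0.067%) the order was the reverse. More genes were separated the same way in both strains, 64 above and 31 below. Of the 33 genes, 15 were protein coding, 9 were processed pseudogenes and 6 were loci that GENCODE lists as still to be experimentally tested (TEC). Among all 16423 tested genes these types numbered 13410, 499 and 284. The rule for naming genes gave Ciart, Abraxas1, Ltbp1, Mitd1 and Kin from this group and Mycbp, Ppp1r7 and Ndufs4 from the 11.

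Activity-dependent transcription factors leaned the same way. All 19 tested members of the immediate early list had a positive difference, with a median of 0.49 against 0.05 over all genes, and 1 of 19 (Npas4) was at an unadjusted p under 0.05, while 1.71% of all genes were so in that direction. The median effect of CRS was -0.77 in B6 and -0.24 in BALB/c. In B6, 10 of 19 were lower in every CRS library than in every control, against 3.7% of all tested genes, and in BALB/c 2 were, Egr1 and Ier5, against 2.02%. The median stayed between 0.30, without B6 CRS replicate 13, and 0.74 when any single library was left out, and it was 0.74 without BALB/c CRS replicate 12 and 0.73 without B6 CRS replicate 14. With median-of-ratios scaling it was 0.43, with 18 of 19 positive. The mean level of the list was 4.79, 4.75 and 4.46 in B6 controls, 3.77, 3.68 and 4.28 in B6 CRS, 4.88, 4.29 and 4.58 in BALB/c controls and 3.90, 4.65 and 4.54 in BALB/c CRS. The B6 groups were separate, and BALB/c CRS replicate 12, the library rich in ribosomal RNA, was the only BALB/c CRS library below all BALB/c controls.

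Npas4, a factor induced by calcium entry that shapes inhibitory synapses, had the difference best resolved in this list. B6 controls had 14.9, 14.7 and 10.2 TPM and B6 CRS mice 6.67, 6.11 and 7.30. In BALB/c it was at 22.3, 9.44 and 12.6 TPM in controls and 12.3, 22.2 and 20.8 after CRS. Every B6 CRS library was below every B6 control, while the BALB/c groups spanned nearly the same range (difference 1.22, 95% interval 0.35 to 2.09, adjusted p 0.9999, limma). Fos had the largest difference, 1.26 (95% interval -0.07 to 2.59), and the widest spread. Its level was 44.9, 57.2 and 24.7 TPM in B6 controls, 11.48, 7.53 and 18.5 in B6 CRS, 60.8, 28.9 and 37.5 in BALB/c controls and 15.6, 43.1 and 39.3 in BALB/c CRS. The orphan nuclear receptor gene Nr4a1 showed 95.3 ± 34.7 TPM against 41.2 ± 14.3 in B6 and 79.1 ± 38.9 against 69.5 ± 17.0 in BALB/c (SD, n = 3 each), a difference of 1.08 (SE 0.51). Egr1, by contrast, was lower after CRS in every library of both strains, by 0.96 in B6 and 0.62 in BALB/c, and its difference of 0.34 (95% interval -0.11 to 0.79) spanned 0. Jund (0.09, SE 0.15), Ier5 (0.04, SE 0.23) and Atf3 (0.06, SE 0.52) had differences near 0.

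The downstream genes of neuronal activity were mixed. Of 13 synaptic effectors, 8 (61.5%) had a positive difference, near the 59.7% of all genes, with a median of 0.20. At an unadjusted p under 0.05 there was 1, against 1.71% of all genes in that direction. That gene was Arc, which encodes a cytoskeletal protein that drives removal of AMPA receptors from synapses. B6 controls had 127, 93.6 and 92.7 TPM and B6 CRS mice 41.1, 26.5 and 45.1. In BALB/c it was at 137, 63.8 and 49.3 TPM in controls and 43.0, 76.9 and 62.8 after CRS, so the B6 groups were far apart and the BALB/c groups overlapped (difference 1.12, 95% interval 0.09 to 2.16). Bdnf, the neurotrophin gene, had a difference of 0.37 (SE 0.38), and Homer1, a postsynaptic scaffold, one of -0.06 (SE 0.25). The list median was -0.05 without B6 control replicate 9. Among 15 feedback genes (MAPK phosphatases, growth arrest genes and related inhibitors) 9 (60%) had a positive difference, again near the share of all genes, with a median of 0.22. Gadd45b and Sertad1, 2 of the 15, were at an unadjusted p under 0.05, against 1.71% of all genes in that direction. The list median was 0.06 without BALB/c control replicate 9 and 0.34 without BALB/c CRS replicate 12. Dusp1, a phosphatase that switches off MAP kinases, had a difference of 0.86 (95% interval -0.01 to 1.72). The members of the Gadd45 family diverged: Gadd45g had 13.4 ± 2.47 TPM in BALB/c controls and 23.4 ± 5.05 after CRS (SD, n = 3 each) with a B6 effect of -0.03, and Gadd45a was lower after CRS in both strains, by 0.52 in B6 and 0.93 in BALB/c.

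**Figure D3:**
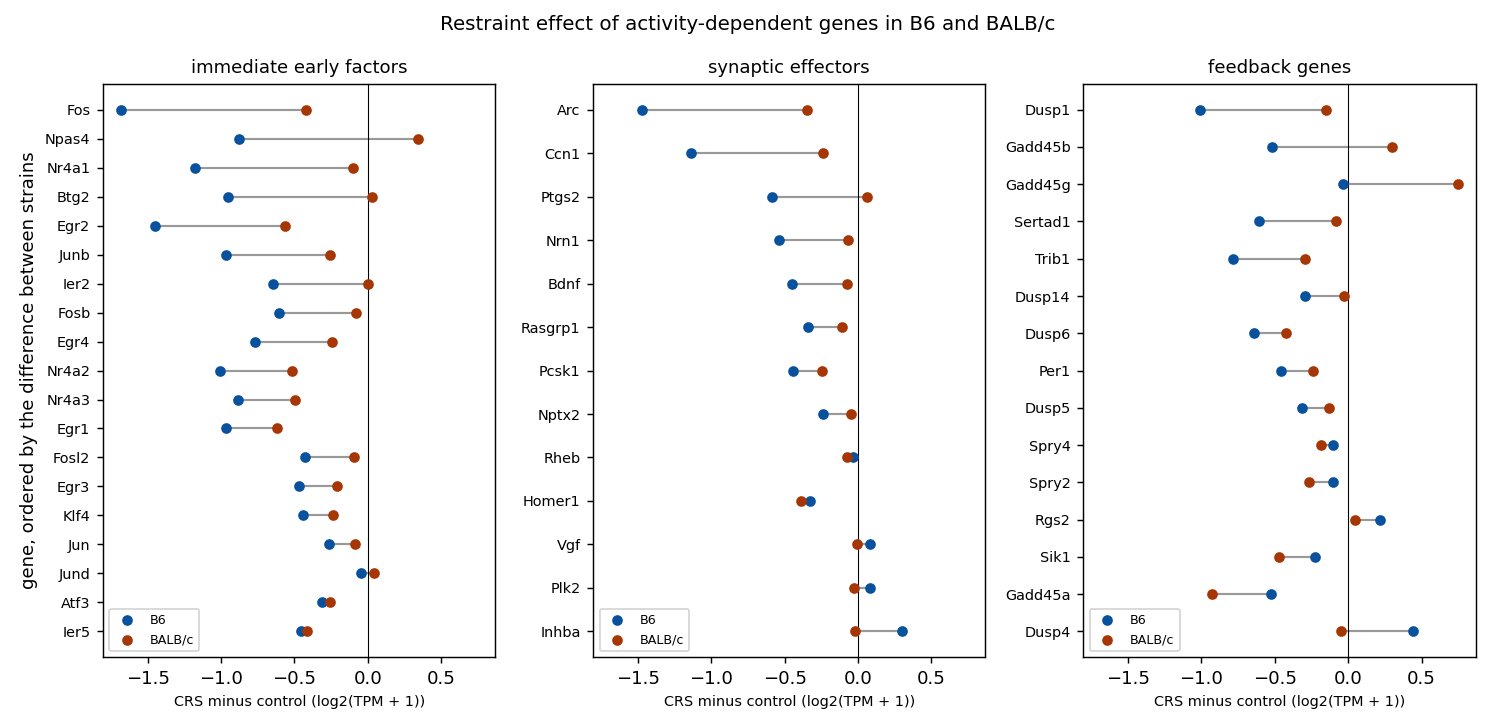
Restraint effect in B6 and in BALB/c of each tested immediate early factor, synaptic effector and feedback gene, on the log2(TPM + 1) scale, with a line joining the 2 strains. All 19 immediate early factors have the B6 point to the left of the BALB/c point, while the other lists hold 8 of 13 and 9 of 15 such genes.

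Markers of the meninges and fibroblasts formed the other list in which every member had a positive difference. All 13 tested members did, with a median of 0.67. At an unadjusted p under 0.05 were 2 of 13 (Igf2 and Col1a1), against 1.71% of all genes in that direction. The median effect was -0.08 in B6 and 0.63 in BALB/c, and 4 members (Igf2, Dcn, Slc6a13 and Col3a1) were higher in every BALB/c CRS library than in every BALB/c control, against 5.36% of all tested genes. Igf2, an insulin-like growth factor made by the leptomeninges and choroid plexus, had 13.7, 31.9 and 14.1 TPM in B6 controls and 18.5, 24.4 and 19.1 in B6 CRS. In BALB/c it was at 8.03, 4.65 and 3.89 TPM in controls and 10.97, 15.2 and 16.1 after CRS, the only separated pair (difference 1.09, 95% interval 0.15 to 2.04, adjusted p 0.9999, limma). The collagen genes Col1a1 (0.82, SE 0.35), Col1a2 (0.71, SE 0.36) and Col3a1 (0.86, SE 0.46) and the proteoglycan Dcn (0.70, SE 0.42) had similar differences. Leaving out B6 control replicate 3 lowered that of Igf2 to 0.71 and that of Dcn to 0.36.

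The mean level of the meningeal list was 2.58, 2.03 and 2.77 in BALB/c controls and 2.93, 3.14 and 3.02 in BALB/c CRS, so these groups did not overlap. In B6 it was 2.67, 3.42 and 2.99 in controls and 2.78, 3.19 and 2.91 after CRS. All BALB/c CRS libraries lay inside the range of the B6 controls, and the BALB/c control libraries included the 2 lowest of all 12. Leaving out a library kept the median between 0.41, without BALB/c control replicate 9, and 0.89, and 12 or 13 members stayed positive. It was 0.38 with the striatal score as a covariate. The list marks tissue at the surface of the cortex, and how much of it each punch held was not tested.

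Striatal markers gave the most negative list. All 18 had a negative difference, with a median of -1.42 and a median effect of 1.15 in B6 and -0.25 in BALB/c, and 2 (Pdyn and Tac1) were at an unadjusted p under 0.05, against 0.986% of all genes. The spread within B6 controls was as large as the difference. Tac1, the precursor of substance P, had 192, 62.7 and 27.6 TPM in B6 controls and 160, 156 and 165 in B6 CRS, against 30.0, 51.6 and 25.1 TPM in BALB/c controls and 22.03, 27.6 and 24.8 after CRS. Its difference of -1.63 (SE 0.71) was -0.98 without B6 control replicate 9. With the striatal score, of which Tac1 is a member, as a covariate it was -0.57. Penk, the enkephalin precursor, ranged from 48.4 to 1182 TPM among B6 controls, from 368 to 1002 among B6 CRS libraries and from 27.6 to 122 in BALB/c. The summed TPM of the 18 markers was 348 to 3733 in B6 controls and 1323 to 3061 in B6 CRS, against 222 to 533 and 228 to 295 in BALB/c, and none was at 0 in all libraries of a group. Leaving out B6 control replicate 2 moved the median to -2.30 and leaving out B6 control replicate 9 to -0.72. The immediate early median was 0.44 with the striatal score as a covariate, and 17 of 19 members were positive.

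Choroid plexus and ependymal markers also had lower differences, with a median of -0.79 and 8 of 10 negative. Of these, 1 was at an unadjusted p under 0.05, against 0.986% of all genes in that direction. This was Folr1, a folate receptor of the choroid plexus, at 0.50 to 0.85 TPM in B6 controls and 1.70 to 4.50 in B6 CRS, and at 1.16 TPM or less in all BALB/c libraries (difference -1.53, SE 0.43). Only the B6 CRS libraries and BALB/c control replicate 9 reached 1 TPM. Folr1 thus passed the filter on low values through the B6 CRS group, and it overlaps Anapc15 on the other strand. The ependymal genes Ccdc153 (-2.26, SE 1.26) and Tmem212 (-1.78, SE 0.98) had large and imprecise values, and B6 control replicate 9 had little of either (0.16 and 0.52 TPM). Without that library their differences were -0.96 and -0.92. The list median was -0.46 without B6 CRS replicate 12 and -0.49 without B6 control replicate 9. Myelin markers had no stable direction: their median was -0.10, with 7 of 20 positive, and it ran from -0.68 to 0.47 when single libraries were left out. Their mean level was 5.41 to 6.98 in B6 controls, 5.48 to 6.69 in B6 CRS, 3.73 to 5.597 in BALB/c controls and 3.83 to 4.88 in BALB/c CRS.

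**Figure D4:**
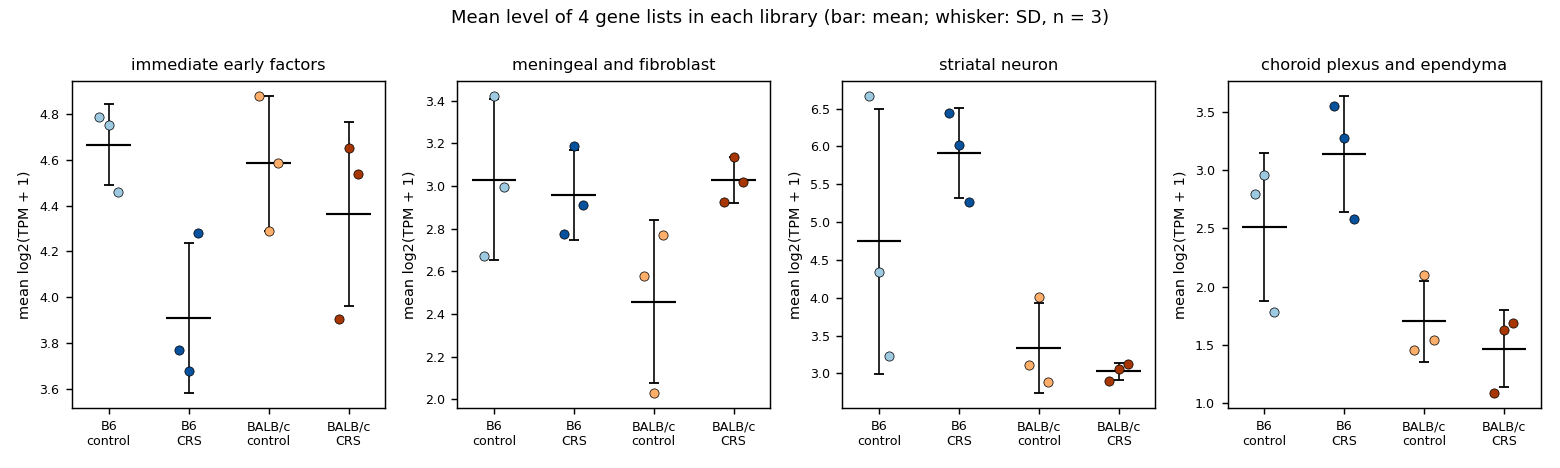
Mean log2(TPM + 1) over the members of 4 gene lists in each library, with group mean and SD (n = 3). The B6 groups are separate for immediate early factors and the BALB/c groups for meningeal markers, while the striatal score of B6 controls spreads from 3.23 to 6.67.

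Genes of the glucocorticoid response include receptors and targets of corticosterone, the stress hormone of mice. Levels of the hormone are not among the values used here. Of 20 tested receptors and direct targets, 13 (65%) had a positive difference, against 59.7% of all genes. The median was 0.12 (0.31 without BALB/c CRS replicate 12, 0.00 without BALB/c CRS replicate 13). At an unadjusted p under 0.05 there was 1 in each direction, against 1.71% of all genes positive and 0.986% negative. Angptl4, an inhibitor of lipoprotein lipase, was at 1.08 ± 0.28 TPM in BALB/c controls and 2.01 ± 0.55 after CRS, and at 1.77 ± 0.25 and 1.49 ± 0.21 TPM in B6 (SD, n = 3 each), a difference of 0.67 (SE 0.26). Sult1a1, a phenol sulfotransferase, was at 7.47, 4.96 and 4.07 TPM in BALB/c controls and 2.40, 2.72 and 2.84 in BALB/c CRS. In B6 it was at 5.20, 5.94 and 9.56 TPM in controls and 6.00, 5.72 and 7.12 after CRS, so only the BALB/c groups were separate (difference -0.72, 95% interval -1.40 to -0.03). Fkbp5, a chaperone gene that is the classic target of the receptor, had higher means after CRS in both strains, by 0.55 in B6 and 0.37 in BALB/c, and a difference of -0.18 (95% interval -0.89 to 0.53). The receptor gene Nr3c1 had lower means after CRS in both, by 0.32 in B6 and 0.26 in BALB/c, and a difference of 0.06 (95% interval -0.36 to 0.47).

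Receptor systems of stress and transmission held no member at an unadjusted p under 0.05, a threshold met by only 2.7% of all tested genes. The median difference was 0.05 over 8 genes of the corticotropin-releasing hormone system, 0.03 over 20 monoamine receptors, -0.04 over 12 GABA-A subunits and 0.14 over 22 glutamate receptors, of which 19 were positive (16 with median-of-ratios scaling). Crhr1, the main receptor of corticotropin-releasing hormone in cortex, had a difference of 0.53 (95% interval -0.40 to 1.46), which was 0.19 without B6 control replicate 9, 0.85 without B6 control replicate 2 and -0.07 with the striatal score as a covariate. Grm2, a presynaptic glutamate autoreceptor, had one of 0.88 (95% interval -0.34 to 2.11) and the upper layer marker Cux2 one of 0.87 (95% interval -0.44 to 2.17). Grm2 was at 0.46 without B6 control replicate 9 and 1.33 without replicate 2, and Cux2 at 0.36 without BALB/c control replicate 9. With the striatal score as a covariate these differences were 0.08 and 0.14. The dopamine receptor genes Drd1 (-1.35, SE 0.89) and Drd2 (-1.60, SE 1.33), also members of the striatal list, were the lowest of the monoamine list. They were -0.67 and -0.35 without B6 control replicate 9, and -2.25 and -2.88 without B6 control replicate 2.

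The remaining lists had medians near that of all genes. These were heat shock chaperones (0.03, 17 genes), cholesterol synthesis enzymes (0.06, 22 genes), interferon-stimulated genes (0.02, 14 genes), excitatory neuron markers (0.16, 19 genes), interneuron markers (0.06, 15 genes), astrocyte markers (0.11, 15 genes), microglia markers (0.04, 16 genes), endothelial and mural markers (-0.05, 16 genes), blood cell markers (-0.15, 6 genes) and sex-linked markers (0.00, 4 genes). No member of these had an unadjusted p under 0.05, against 2.7% of all tested genes. With median-of-ratios scaling the medians of the clock (-0.02), heat shock (-0.02), monoamine (-0.01), interferon (-0.01), microglia (-0.01) and sex-linked (-0.05) lists lay below 0. Fabp7, a fatty acid binding protein of astrocytes and their precursors, had high values after CRS in both strains. It was higher after CRS in every library of both, by 1.44 in B6 and 1.03 in BALB/c, and the difference was -0.41 (95% interval -0.98 to 0.15), which was -0.17 without B6 control replicate 9. Mitochondrially encoded transcripts had a negative difference in 14 of 15 members, with a small median of -0.13.

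**Figure D5:**
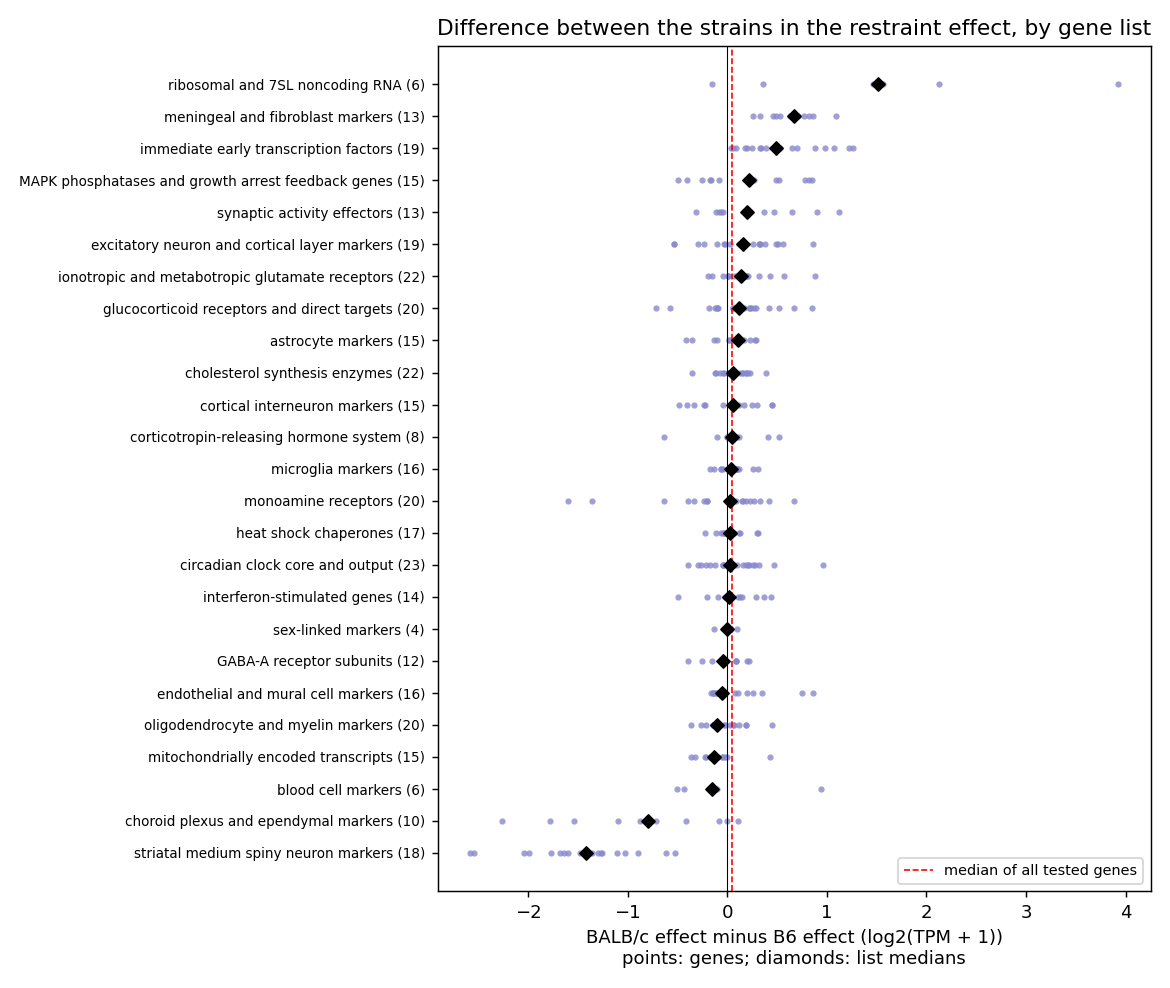
Difference between the strains in the restraint effect for each tested member (points) of 25 gene lists and their medians (diamonds), on the log2(TPM + 1) scale, with the number of members in brackets. Meningeal markers and immediate early factors lie wholly to the right of 0 and striatal markers wholly to the left, and the red line marks the median of all tested genes, 0.05.

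The list of ribosomal and other noncoding RNAs had the highest median, 1.52 over 6 genes, and it rested on 1 library. Rmrp, the RNA of the RNase MRP enzyme, was listed at 70.5 TPM in BALB/c CRS replicate 12, in the other 2 BALB/c CRS libraries at 1.74 and 3.30 TPM, with 0 in all BALB/c controls. Rn7s1, an RNA of the signal recognition particle, was at 3399 TPM in that library and at 16.1 to 164 TPM in the other 11. Without BALB/c CRS replicate 12 the median was -0.01.

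Of 284 TEC loci, a class singled out after its values were seen, 21 (7.39%) were at an unadjusted p under 0.05 with a positive difference and 2 (0.704%) with a negative one, against 1.71% and 0.986% of all genes. The positive count was 15 with median-of-ratios scaling and 15 without BALB/c CRS replicate 12. Their median difference was 0.23, with 78.2% above 0, a median effect of -0.13 in B6 and 0.09 in BALB/c, and a range of 0.20 to 0.27 when single libraries were left out. Processed pseudogenes (499 tested) had 36 positive (7.21%) and 19 negative genes (3.81%) at that threshold, so the high positive share was not particular to TEC loci. Protein-coding genes (13410) had 155 (1.16%) and 99 (0.738%), but 165 and 212 with median-of-ratios scaling, and 465 positive without BALB/c CRS replicate 12. The 2 genes of lowest p overall were weakly expressed. Gm47893 was listed at 0 outside the BALB/c CRS group, whose libraries had 9.08, 8.31 and 2.60 TPM, and it passed the filter on low values through these libraries alone. Gm10132 had a difference of 2.32 (SE 0.38) with all values at 2.08 TPM or less. Both are processed pseudogenes, of near-identical sequence to Glrx2 and Rpl23a among others, and their own values are uncertain.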

How the data were processed

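RNA from 12 punches of medial prefrontal cortex was sequenced from stranded poly(A) libraries with paired 150 bp reads to about 6 Gb each, per the labels' protocols. The submitters' processing notes name cutadapt 2.9, Salmon and GRCm38; annotation and strand setting are not given in the sources used here. The values are TPM as the authors deposited them, in 1 table of 147902 rows; the unit was read from the column totals of 1000000. TPM keeps no depth, so precision rests on the spread between animals.

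TPM was summed over rows of the same gene name, and genes reaching 1 TPM in 3 or more libraries were analysed as log2(TPM + 1) with limma 3.58.1 under R 4.3.3 (4 group means, 8 residual degrees of freedom, eBayes with trend) and Benjamini-Hochberg adjustment over 16423 genes. Groups and animal numbers come from the sample titles. The deposited table gives no cell types, and 405 names in 25 lists were described by counts and medians without a test: 370 distinct genes were tested, 29 fell below the filter and 6 names are not in the table. Named genes were, per direction, the 12 of lowest p with a mean log2 level of 2 or more and an informative symbol, the 5 of lowest p separated in opposite directions (3 qualified on the negative side), and the 3 members of lowest p per list, with further members as examples of a list's range; Gm47893, Gm10132, Gm22581 and the gene types were chosen after their values were seen. Alternatives changed the pseudocount, filter, scaling, variance model, library weights, covariates (striatal or myelin score), block and libraries; those for single list genes, gene types and the all-gene median were chosen after seeing the data. Members and lists were chosen with earlier results of these data known. Overlaps and gene types are from GENCODE M21 (GRCm38) and near-identical transcripts from blastn 2.17.0 (95% identity over 80% of the shorter). Animal numbers shared between strains (9, 12 and 13) belong to different animals; their libraries' deviations correlated at -0.24, -0.03 and -0.04, so they do not pair the samples.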

Additional observations from a re-analysis of the deposited data

Results flagged for a closer look

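In 9 of the genes described, every CRS library lay on opposite sides of the controls in the 2 strains. Each difference was tested by the interaction term in limma and none passed the adjusted threshold, and 44 of all tested genes show such an order. CRS values were lower in B6 and higher in BALB/c for Ciart, a clock repressor (0.96), Abraxas1, of DNA repair (1.18), Ltbp1, of TGF-β binding (1.21), Mitd1, of cell division (0.68), Kin, a DNA-binding protein (0.51), and the pseudogene Gm10132 (2.32). They were higher in B6 and lower in BALB/c for Mycbp, a MYC-binding protein (-1.14), Ppp1r7, a phosphatase subunit (-0.58), and Ndufs4, of complex I (-0.32). Ciart and Mycbp have an overlapping gene on the other strand, as do Mitd1, Ppp1r7 and Gm10132.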

How the results depend on the processing

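The number of genes called was 0 under most alternatives. It was 2 with no filter on low values (Ghrl and 9530034E10Rik), 1 with the striatal score as a covariate (Gm22581), and 0 to 2 when each library was left out in turn (Gm22581 and Strip2 without B6 control replicate 2, Gm47893 without BALB/c CRS replicate 15). The fit with the replicate block, on numbers that do not pair these animals, left 1 residual degree of freedom and gave 165 calls and 2023 genes at an unadjusted p under 0.05. That latter count was 997 with no filter, 188 at a mean of 5 TPM or more, 2390 with library weights and 335 to 915 when each library was left out. It was 915 without B6 control replicate 2 and 704 without BALB/c CRS replicate 12. Genes separated in opposite directions numbered 83 with no filter, 15 at a mean of 5 TPM or more, and 64 to 138 without 1 library. A group of 2 libraries is separated more easily than a group of 3, so these last counts cannot be set against the main count. Of 75 genes tracked, 68 kept their sign throughout. With the striatal covariate Crhr1 (-0.0672), Drd1 (0.0466), Drd2 (0.499), Penk (0.0166) and Nr3c1 (-0.0977) reversed. Of these, Drd1, Drd2 and Penk are members of that score, so their change is partly built in. When each library was left out, the lowest and highest values were -0.0257 and 0.47 for Per1, -0.36 and 0.0418 for Fkbp5 (0.0178 without BALB/c CRS replicate 12), and -0.0706 and 0.17 for Nr3c1, which was also below 0 without BALB/c CRS replicate 13. The causes were not tested. With 3 animals per group and no read counts, differences under about 0.54, the median half-width of an unadjusted 95% interval, could not be resolved for a typical gene. The adjusted threshold over 16423 genes is stricter, and Ciart, with a difference of 0.96 (SE 0.17), did not pass it.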
